A study of Homo sapiens with 6 samples.

Results

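The tumour necrosis factor (TNF) superfamily comprises small trimeric ligands, most of them made as membrane proteins on the cell surface, and the TNF receptor superfamily comprises the surface receptors that bind them. The members described here were all protein-coding genes whose symbol began with TNFSF or TNFRSF, together with TNF, LTA, LTB, LTBR, FAS, FASLG, CD40, CD27, CD70 and NGFR. This name rule found 43 members among the 58735 genes of the deposited table. Of these, 17 were ligands, 7 were death receptors, 4 were decoy receptors and 15 were receptors that activate NF-kB without a death domain.

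Death receptors carry a cytoplasmic death domain, through which adaptor proteins can recruit caspases. The other signalling receptors recruit TRAF adaptors, which lead to the NF-kB transcription factors and to the JNK and p38 kinases. Decoy receptors bind ligand but carry no working death domain, so they take ligand away from the signalling receptors. In squamous epithelium several of the receptors are made by the epithelial cells themselves, while many of the ligands are best known from lymphocytes and myeloid cells.

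RNA was sequenced in bulk from KYSE410, a human oesophageal squamous carcinoma cell line, in 3 control libraries titled NC and 3 libraries of siADAR1 knockdown cells. ADAR1, the product of the gene ADAR, edits adenosine to inosine in double-stranded RNA. The labels call the controls wild type and the other group ADAR1 knockdown, give the treatment of both as none, and place all 6 samples in the same batch. They give neither a non-targeting siRNA for the controls nor the time after knockdown, and they do not say whether the 3 samples of a group came from separate cultures. The p-values therefore measure the spread between these samples only, which may be technical. All cells belong to 1 line, so a difference applies to that line.

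Library totals were 15497788 to 17329443 counts in control and 15175619 to 16903792 in siADAR1. ADAR itself was at 455, 431 and 443 counts per-million (CPM) in control replicates 1 to 3 and at 92.6, 95.6 and 77.5 CPM in siADAR1. Its log2 fold change was -2.32 ± 0.09 (SE, adjusted p = 1.06e-08). CPM were taken on library totals scaled by trimmed means (TMM). Each test below is edgeR's quasi-likelihood F test over all 15294 genes with enough counts, two-sided, with p adjusted by the Benjamini-Hochberg method across those genes and a threshold of 0.05. Of the genes tested, 51.0% passed, 26.0% as higher in siADAR1 and 25.0% as lower, and 60.3% had CPM values that did not overlap between the groups. The 2 libraries numbered 1 stood apart from the others, so the counts of members were also made without them. In bulk RNA, fewer cells that make a transcript and less of it per cell cannot be told apart.

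Of the 43 members, 22 had enough counts to be tested and 21 did not. In siADAR1, 8 members rose, 6 fell and 8 did not pass the test. The members' median log2 fold change was 0.04, beside 0.00469 over all genes tested. Groups did not overlap for 15 of the 22, or 68.2%, beside 60.3% of all genes tested. TNF, TNFSF18 and TNFRSF9 had enough counts through the siADAR1 libraries alone, so a count over the tested members favours rises. Among the 19 members that reached the count minimum in every control library, 5 rose and 6 fell, or 57.9% against the background of 51.0%. For 12 of those 19 the groups did not overlap, or 63.2%, near the share over all genes. Without both libraries numbered 1, 8 members rose and 7 fell, while the genes called over the whole table went from 7804 to 8269. The 8 that rose still included TNF, TNFSF18 and TNFRSF9.

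**Figure D1:**
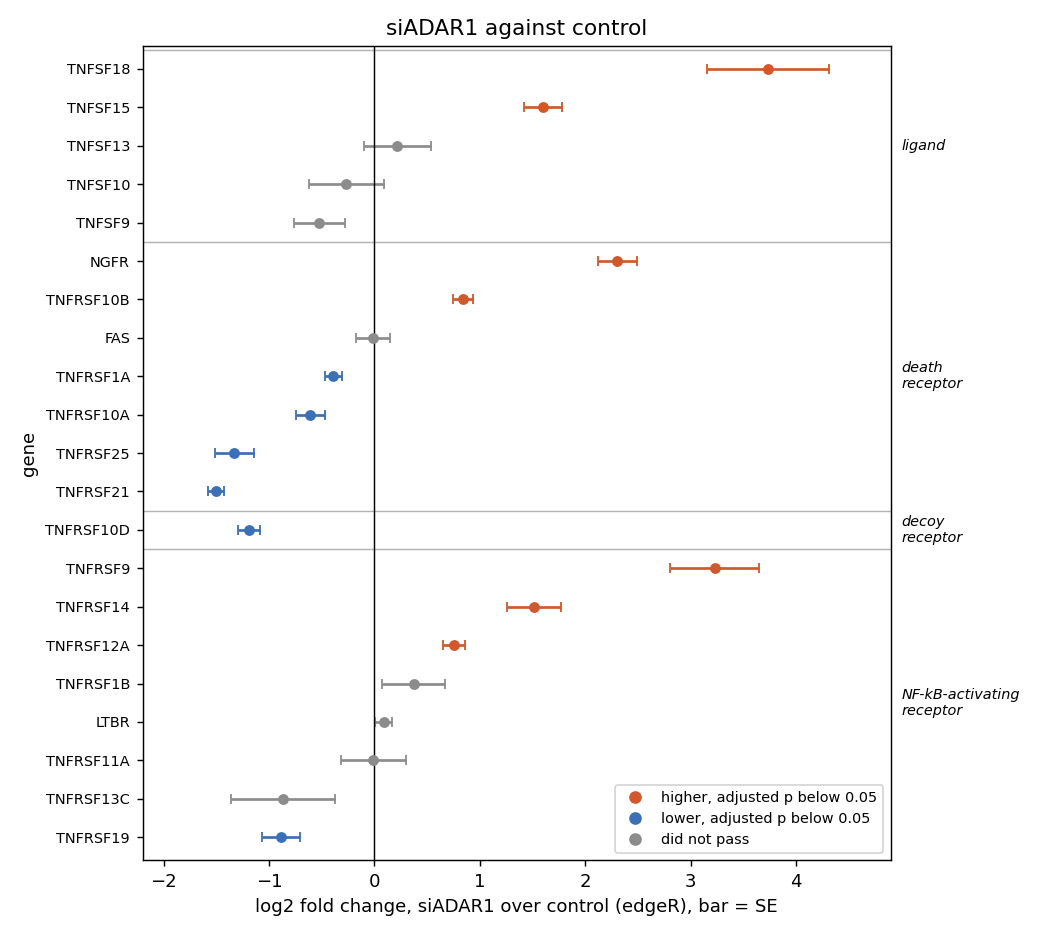
Log2 fold change of each tested member, siADAR1 minus control, with bars of 1 SE over 3 libraries per group, arranged by role and coloured by whether the member was higher, lower or did not pass. TNF, with 0 counts in control, has only a lower bound and is not drawn. Of the 6 death receptors that passed, 4 lie on the lower side. TNFSF18 and TNFRSF9 had enough counts in siADAR1 alone, so they could lie only on the higher side.

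Levels per length were compared with the deposited FPKM (fragments per kilobase, scaled between libraries), since CPM is not corrected for gene length. The totals behind the FPKM were 0.966 to 0.97 times the library totals in control and 1.05 to 1.06 times in siADAR1, so their scaling was not by depth alone. In control the highest member was TNFRSF12A at 126 ± 7.68 FPKM (SD, n = 3), followed by TNFRSF21 at 98.4 ± 2.01, TNFRSF1A at 58.2 ± 3.85, LTBR at 38.9 ± 2.56, TNFRSF10D at 27.7 ± 2.02 and TNFRSF10B at 17.9 ± 0.202. In siADAR1 the order was TNFRSF12A at 213 ± 33.8 FPKM, TNFRSF1A at 44.3 ± 1.60, LTBR at 41.3 ± 0.931, TNFRSF21 at 34.6 ± 0.712, TNFRSF10B at 32.0 ± 3.30 and TNFRSF10D at 12.1 ± 1.44. In siADAR1 the libraries of TNFRSF21 and TNFRSF10B overlapped, so the order of those neighbours was within their spread. The same 6 receptors led in both groups, and TNFRSF21 moved from the second to the fourth place. Summed over members, death receptors made 193 ± 5.52 FPKM in control and 130.1 ± 3.26 in siADAR1. The receptors that activate NF-kB made 172.5 ± 10.1 and 262 ± 35.9 FPKM, most of it from TNFRSF12A. Ligands together made 5.95 ± 0.662 FPKM in control and 8.77 ± 1.09 in siADAR1, far below either class of receptor. These sums are descriptions and were not tested.

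**Figure D2:**
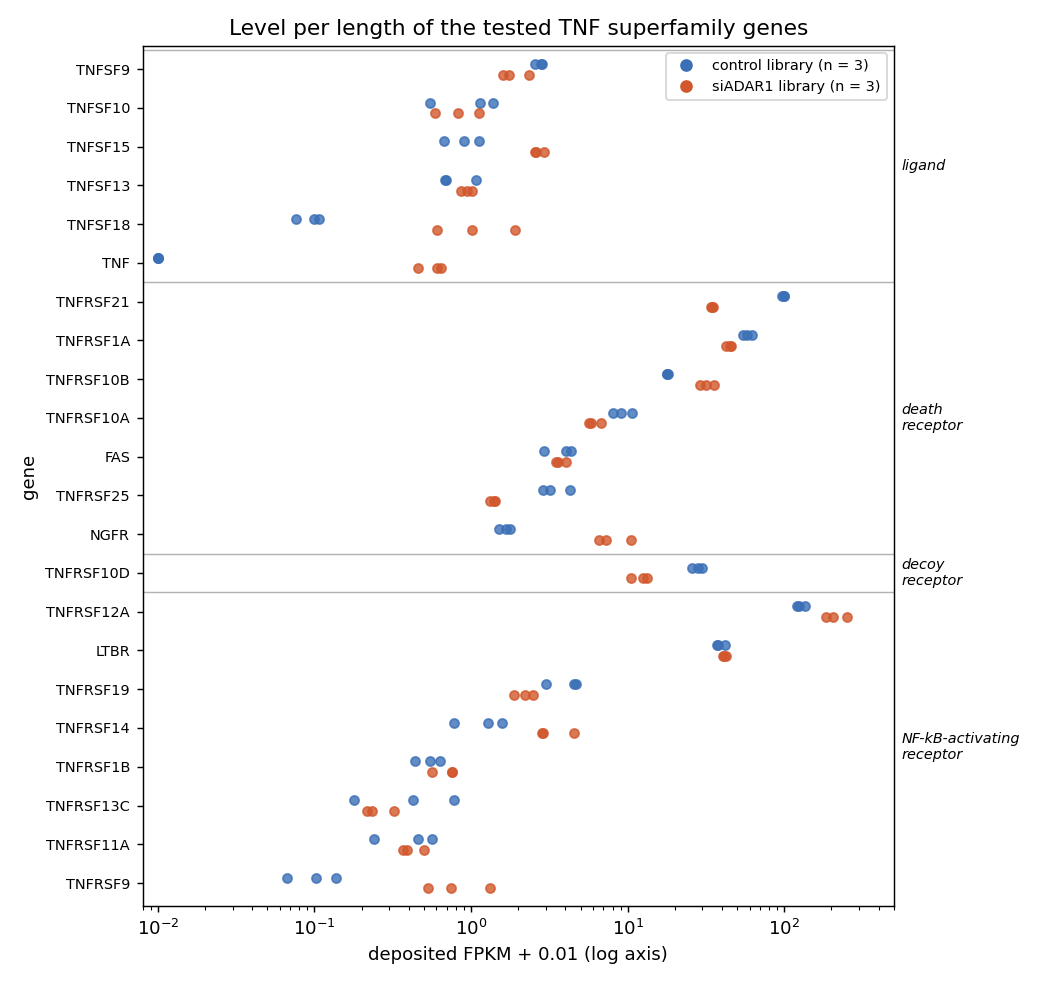
Deposited FPKM of each tested member on a log axis, 1 point per library, control and siADAR1 in separate colours and members grouped by role. The ligands have group means of at most 2.73 FPKM, a range they share with receptors such as TNFRSF1B, TNFRSF13C and TNFRSF11A. TNFRSF12A, TNFRSF21, TNFRSF1A and LTBR lie at the high end. A small constant was added so that the control values of TNF, listed at 0, appear at the left edge.

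Among the ligands, 3 of the 6 tested members passed, all as higher, a share of 50% beside 51.0% of all genes. TNF and TNFSF18 entered the test through the siADAR1 libraries alone, so their direction was set by the filter, and of the 4 ligands that reached the count minimum in every control library 1 rose. TNF, the founding inflammatory cytokine of the family (chromosome 6, 31575567 to 31578336 on GRCh38, ENSG00000232810), had 0 counts in all 3 control libraries and 18, 12 and 17 counts in siADAR1 replicates 1 to 3. These are 1.01, 0.763 and 1.08 CPM, so every siADAR1 library lay above every control. A count of 0 allows up to 3 counts, and against that floor over the control group TNF was at least 14.9-fold higher in siADAR1 (adjusted p = 2.55e-04). LTB, lymphotoxin beta, the membrane anchor of the lymphotoxin heterotrimer (chromosome 6, 31580525 to 31582522), also had 0 counts in every control library. Its siADAR1 libraries held 12, 13 and 9 counts, at least 10.7-fold higher against the same floor. LTB fell short of the count minimum and was not tested with it. With no filter on low counts its adjusted p was 4.24e-05. Between them on the same chromosome lies no other member, and the gap from TNF to LTB is 2.19 kb. LTA, lymphotoxin alpha, on the other side of TNF at a distance of 1.24 kb, had 2 counts in control replicate 1 and none elsewhere. LTB and LTA are therefore at or near the limit of this depth, where 3 counts correspond to 0.169 to 0.202 CPM.

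TNFSF18, the ligand of the receptor GITR (chromosome 1, 173039960 to 173050963), had 3, 2 and 3 counts in control and 68, 32 and 19 in siADAR1. In CPM these are 0.181, 0.134 and 0.197 against 3.83, 2.03 and 1.21. The siADAR1 libraries spread widely, with replicate 1 the highest, and all of them were above the controls. The log2 fold change was 3.73 ± 0.58 (adjusted p = 1.57e-04), and 3.18 ± 0.59 (adjusted p = 0.0012) without siADAR1 replicate 1. Its neighbour TNFSF4, the ligand of OX40, lies 133 kb away and had 0, 2 and 0 counts in control and 3, 2 and 1 in siADAR1.

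**Figure D3:**
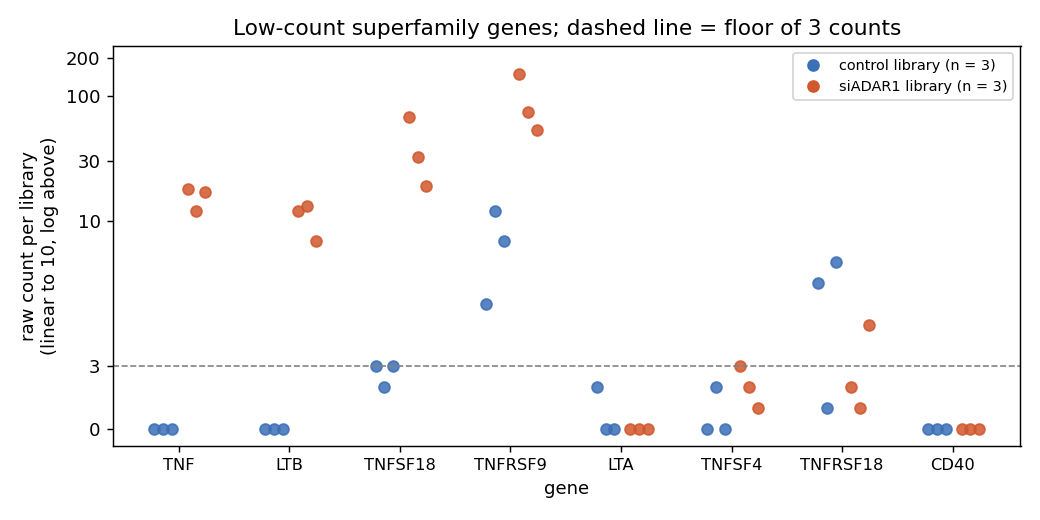
Counts per library of members at low level, 1 point per library, on an axis that is linear up to 10 counts and logarithmic above, with a dashed line at the floor of 3 counts and the groups in separate colours. TNF and LTB are at 0 in all control libraries and between 9 and 18 counts in siADAR1, and TNFSF18 and TNFRSF9 rise from at most 12 counts to at least 19.

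TNFSF15, also called TL1A, is the ligand of the death receptor TNFRSF25 (chromosome 9, 114784635 to 114806126). Its levels were 5.25, 7.06 and 8.79 CPM in control and 23.0, 20.2 and 20.6 CPM in siADAR1. The siADAR1 libraries were close together and all above the highest control. This was a log2 fold change of 1.60 ± 0.18 (adjusted p = 1.24e-05). TNFSF15 was the ligand with the highest FPKM in siADAR1, at 2.67 ± 0.194, while in control that place belonged to TNFSF9 at 2.73 ± 0.164.

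The other 3 tested ligands did not pass. TNFSF9, the ligand of the costimulatory receptor CD137, was at 4.70, 4.77 and 4.26 CPM in control and 3.94, 2.67 and 2.92 CPM in siADAR1. The groups did not overlap, and the log2 fold change was -0.52 ± 0.24 (adjusted p = 0.0841). It passed as lower when siADAR1 replicate 1 was left out, at -0.71 ± 0.25 (adjusted p = 0.0377). TNFSF10, also called TRAIL, the ligand that engages the receptors TNFRSF10A and TNFRSF10B, was at 1.87, 3.96 and 4.79 CPM in control and 2.03, 2.86 and 3.93 CPM in siADAR1. The groups overlapped almost fully (log2 fold change -0.27 ± 0.35, adjusted p = 0.553). TNFSF13, also called APRIL, was at 1.57, 1.55 and 2.43 CPM and at 2.31, 1.97 and 2.16 CPM, with a log2 fold change of 0.22 ± 0.32 (adjusted p = 0.591). TNFSF13 shares 55.5% of its exonic bases with the readthrough gene TNFSF12-TNFSF13, which had no count, and reads from the shared part cannot be told apart.

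All 7 death receptors were tested; 4 fell, 2 rose and FAS did not pass, so that 85.7% were called beside 51.0% of all genes. TNFRSF21, also called DR6, a death-domain receptor that was the most abundant of them per length in control (chromosome 6, 47231532 to 47309905), was at 359, 349 and 363 CPM in control. In siADAR1 it was at 123, 128 and 126 CPM. The spread within each group was small beside the gap between them. Its log2 fold change was -1.51 ± 0.08 (adjusted p = 3.87e-08), a 2.84-fold lower level. TNFRSF25, also called DR3, the receptor of TNFSF15 (chromosome 1, 6460786 to 6466195), was at 18.6, 12.4 and 13.6 CPM in control and 5.63, 6.10 and 6.03 CPM in siADAR1. All siADAR1 libraries lay below the lowest control, with a log2 fold change of -1.33 ± 0.18 (adjusted p = 6.77e-05). A share of 8.94% of its exonic bases overlaps ESPN on the other strand and 2.43% overlaps PLEKHG5, and the library protocol names no step that marks strand.

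TNFRSF1A, the main receptor of TNF and present on most cell types (chromosome 12, 6328757 to 6342114), was at 252, 232 and 221 CPM in control and 172, 181 and 185 CPM in siADAR1. Its fall was smaller, at -0.39 ± 0.08 on the log2 scale (adjusted p = 1.66e-03), and the groups did not overlap. LTBR, the receptor of the lymphotoxin heterotrimer, is its neighbour at 32.9 kb and did not pass. TNFRSF10A, the TRAIL receptor also called DR4 (chromosome 8, 23190452 to 23225126), was at 31.9, 23.9 and 26.8 CPM in control and 17.3, 20.0 and 16.9 CPM in siADAR1. Control replicate 1 was the highest library. The log2 fold change was -0.61 ± 0.14 (adjusted p = 2.65e-03). Antisense genes overlap 9.01% and 7.59% of the exonic bases of TNFRSF10A, and reads from either strand cannot be told apart there.

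NGFR, the neurotrophin receptor that carries a death domain and marks basal cells of squamous epithelia (chromosome 17, 49495293 to 49515017), rose most among death receptors. Control libraries were at 7.42, 6.92 and 6.30 CPM and siADAR1 libraries at 44.0, 30.5 and 27.5 CPM. The lowest siADAR1 library was well above every control, and replicate 1 was again the highest. On the log2 scale NGFR rose by 2.31 ± 0.18 (adjusted p = 8.84e-07), or 4.94-fold. In FPKM it moved from 1.64 ± 0.133 to 8.11 ± 2.10. An unclassified transcript on the other strand overlaps 22.3% of the exonic bases of NGFR, and it had 4 counts in siADAR1 replicate 1 and none elsewhere.

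TNFRSF10B, the other TRAIL death receptor, also called DR5 (chromosome 8, 23020133 to 23069179), was at 93.2, 94.3 and 92.2 CPM in control and 185, 165 and 151 CPM in siADAR1. The 3 controls were nearly equal and all siADAR1 libraries lay above them, with a log2 fold change of 0.84 ± 0.09 (adjusted p = 1.01e-05). FAS, the receptor of FASLG, was at 12.4, 17.1 and 18.6 CPM in control and 15.4, 14.9 and 17.3 CPM in siADAR1. The siADAR1 values lay inside the control range (log2 fold change -0.02 ± 0.16, adjusted p = 0.940). The control libraries of FAS differed among themselves more than the groups did. ACTA2 on the other strand overlaps 8.93% of its exonic bases, with at most 16 counts in a library.

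Of the 4 decoy receptors only TNFRSF10D had enough counts. TNFRSF10D, a TRAIL receptor whose death domain is truncated (chromosome 8, 23135588 to 23164030), was at 91.5, 106 and 99.6 CPM in control and 37.6, 47.7 and 44.6 CPM in siADAR1. Every siADAR1 library was below every control. The log2 fold change was -1.19 ± 0.11 (adjusted p = 2.51e-06), or 2.28-fold lower. TNFRSF10C, the TRAIL decoy held in the membrane by a lipid anchor, had 2 counts in siADAR1 replicate 3 and none in the other libraries. TNFRSF11B, also called osteoprotegerin, the soluble decoy for TNFSF11, had 8, 4 and 2 counts in control and 7, 3 and 7 in siADAR1. TNFRSF6B, a soluble decoy for FASLG, TNFSF14 and TNFSF15, is listed at 0 in every library. All of its exonic bases are shared with the readthrough gene RTEL1-TNFRSF6B, which had 55, 52 and 58 counts in control and 99, 55 and 61 in siADAR1, so its 0 does not show that the transcript is absent.

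The 4 TRAIL receptors lie in 1 cluster on chromosome 8, and the 3 that were tested did not share a direction. TNFRSF10B rose, while TNFRSF10D at 66.4 kb from it and TNFRSF10A, a further 26.4 kb on, fell. To compare them within a library, counts per kilobase were divided, which leaves out the scaling between libraries. TNFRSF10D stood at 1.43, 1.63 and 1.58 times TNFRSF10B in the control libraries and at 0.297, 0.422 and 0.431 times in siADAR1. Per kilobase the decoy was thus above this death receptor in every control library and below it in every siADAR1 library, a log2 change of the ratio of -2.03. The order in control depended on gene length, as control replicate 1 had 1517 counts of TNFRSF10D and 1545 of TNFRSF10B. TNFRSF10A stood at 0.599, 0.444 and 0.509 times TNFRSF10B in control and at 0.164, 0.212 and 0.195 times in siADAR1, a log2 change of -1.44. These ratios were chosen after their values were seen and are given as a description, with no test. TNFRSF10A, TNFRSF10B and TNFRSF10D share at most 1.0% of their 50-base words with any other gene.

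**Figure D4:**
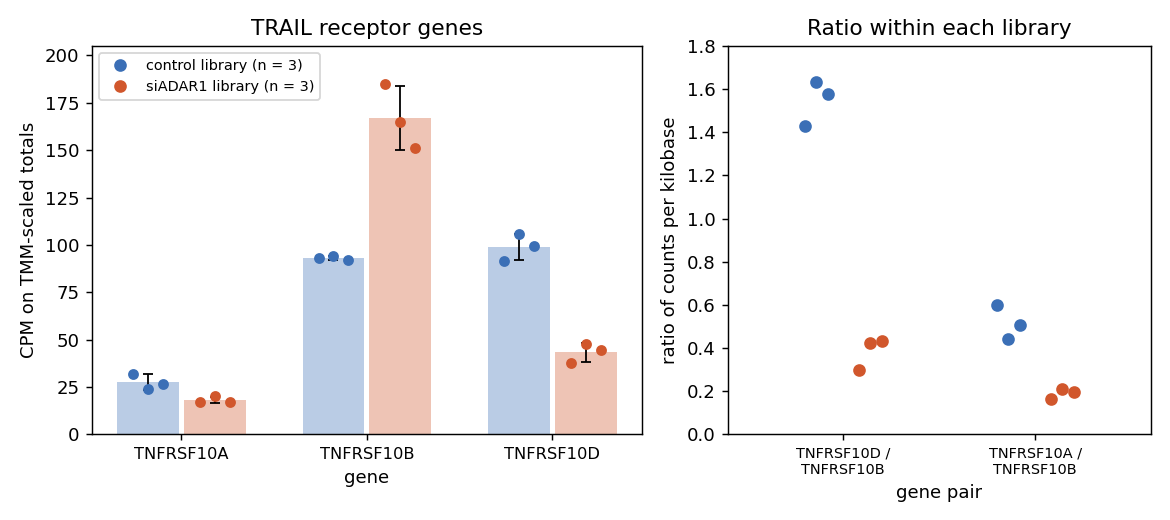
Left, CPM of the TRAIL receptors TNFRSF10A, TNFRSF10B and TNFRSF10D, with points for libraries, bars for the group mean and error bars of 1 SD (n = 3). Right, the within-library ratios of TNFRSF10D and TNFRSF10A to TNFRSF10B in counts per kilobase. Per kilobase, TNFRSF10D exceeds TNFRSF10B in the controls, with ratios of 1.43 to 1.63, and lies below it in siADAR1, with ratios of 0.297 to 0.431.

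Of the 15 receptors that activate NF-kB without a death domain, 8 had enough counts, of which 3 rose and 1 fell. The share called was 50%, at the background of 51.0%, and TNFRSF9, among the 3 that rose, entered the test through siADAR1 alone. TNFRSF12A, also called Fn14, the receptor of TNFSF12 (chromosome 16, 3018445 to 3022383), was at 252, 224 and 231 CPM in control and 466, 381 and 344 CPM in siADAR1. All siADAR1 libraries exceeded all controls, replicate 1 most. TNFRSF12A thus rose by 0.75 ± 0.11 on the log2 scale (adjusted p = 7.54e-05). Its ligand TNFSF12, also called TWEAK, had 5, 1 and 7 counts in control and 3, 1 and 3 in siADAR1.

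TNFRSF9, also called CD137, a costimulatory receptor of activated lymphocytes (chromosome 1, 7915894 to 7943165), had 6, 12 and 9 counts in control and 149, 74 and 53 in siADAR1. In CPM these are 0.362, 0.806 and 0.590 against 8.38, 4.70 and 3.36. Every siADAR1 library was above every control, but the siADAR1 libraries spread over a wide range. The log2 fold change was 3.23 ± 0.42 (adjusted p = 3.88e-05), or 9.37-fold. Without both libraries numbered 1 it was 5.72-fold (log2 2.52 ± 0.41, adjusted p = 4.5e-06). TNFRSF14, also called HVEM, the receptor of TNFSF14 (chromosome 1, 2555639 to 2565382), was at 9.77, 4.84 and 7.94 CPM in control and 28.6, 17.7 and 18.1 CPM in siADAR1. The groups were apart, with a log2 fold change of 1.51 ± 0.26 (adjusted p = 6.34e-04). The antisense gene TNFRSF14-AS1 overlaps 13.4% of its exonic bases and had 22, 36 and 23 counts in control and 113, 64 and 75 in siADAR1, and without strand the reads of TNFRSF14 and its antisense gene cannot be told apart there.

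TNFRSF19, also called TROY, a receptor of epithelial and neural progenitors (chromosome 13, 23570370 to 23676104), was the member of this class that fell. It was at 15.5, 23.2 and 24.1 CPM in control and 9.68, 12.8 and 11.4 CPM in siADAR1. In both groups replicate 1 was the lowest, and the groups did not overlap (log2 fold change -0.89 ± 0.18, adjusted p = 1.22e-03). LTBR was at 265, 235 and 239 CPM in control and 268, 259 and 258 CPM in siADAR1, with a log2 fold change of 0.09 ± 0.08 (adjusted p = 0.375). With library totals in place of TMM scaling, which moves the median of all genes to 0.122, LTBR was at 0.21 (adjusted p = 0.0431). SCNN1A on the other strand overlaps 6.72% of the exonic bases of LTBR and had 1427, 1570 and 1593 counts in control and 2408, 1858 and 2052 in siADAR1.

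TNFRSF11A, also called RANK, the receptor of TNFSF11, was at 4.04, 2.08 and 5.05 CPM in control and 3.43, 4.45 and 3.24 CPM in siADAR1. The groups overlapped (log2 fold change -0.01 ± 0.31, adjusted p = 0.980). TNFRSF1B, the second TNF receptor, was at 1.63, 2.35 and 2.03 CPM in control and 2.81, 2.10 and 2.86 CPM in siADAR1 (log2 fold change 0.37 ± 0.30, adjusted p = 0.315). TNFRSF13C, the receptor of the B cell survival factor TNFSF13B, was at 3.08, 0.672 and 1.64 CPM in control and 1.24, 0.826 and 0.888 CPM in siADAR1. Its controls spread more than the groups differed (log2 fold change -0.87 ± 0.49, adjusted p = 0.158). It passed as lower when control replicate 2 was left out, at -1.26 ± 0.43 (adjusted p = 0.0326).

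Of the 21 members below the count minimum, 5 had no count in any library, namely TNFSF8, TNFSF12-TNFSF13, TNFRSF13B, CD40 and TNFRSF6B. No library of any of the 21 exceeded 13 counts. TNFSF14, also called LIGHT, had 11, 8 and 3 counts in control and 6, 4 and 4 in siADAR1, and TNFSF13B, also called BAFF, had 10, 2 and 5 and then 3, 0 and 5. TNFRSF18, or GITR, the receptor of TNFSF18, had 7, 1 and 8 counts in control and 2, 1 and 5 in siADAR1. FASLG had 1, 0 and 3 counts and then 0, 0 and 1, CD70 had 3 counts in siADAR1 replicate 3 alone, and TNFSF11, or RANKL, had 1 count in siADAR1 replicate 2 alone. CD27, which shares 37.0% of its exonic bases with an antisense gene, had 5, 4 and 0 counts in control and 4, 2 and 1 in siADAR1. TNFRSF4 had 5, 4 and 0 counts and then 2, 2 and 2, TNFRSF8 had 3, 0 and 0 and then 5, 1 and 0, and TNFRSF17 had 0, 1 and 1 and then 0, 0 and 1. Apart from LTB, differences in these members were not detectable at this depth.

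Of 26 ligand and receptor pairs known to bind, both partners were tested in 7, the receptor alone in 8, the ligand alone in 4 and neither in 7. For TNFSF15 and TNFRSF25 the ligand rose and the receptor fell. Within a library TNFSF15 stood at 0.153, 0.310 and 0.350 times TNFRSF25 per kilobase in control and at 2.22, 1.80 and 1.85 times in siADAR1. The ligand was thus below the receptor in every control library and above it in every siADAR1 library. For TNF, the ligand rose from 0 counts while TNFRSF1A fell, and TNFRSF1B did not pass. For CD137, the receptor TNFRSF9 rose while the ligand TNFSF9 did not pass. The ratio of receptor to ligand moved from 0.0337 ± 0.0123 (SD, n = 3) to 0.442 ± 0.130, with only 6, 12 and 9 counts of TNFRSF9 in control. TNFSF18 rose, but its receptor TNFRSF18 was too low to test. TNF, TNFSF18 and TNFRSF9 entered the test through siADAR1 alone, so the filter set the direction of their part in these pairs. In the pairs of TRAIL, TNFSF10 did not pass while its 3 tested receptors changed.

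Promoter sequence is shown for the 4 members with a match upstream of the start, because NF-kB both acts downstream of these receptors and has known target genes in the family. RefSeq windows (GRCh38.p14, 250 bases before to 50 after the start) were given for 28 of the 43 members. They were searched on both strands for the kappaB consensus, a motif of 10 letters given by its name. It was found in 5 of the 28 windows, or 17.9%, beside 11.3% of the 35116 RefSeq windows of the same length. The 5 were TNFRSF9 and TNFRSF14, which rose, TNFRSF25, which fell, and LTB and TNFSF14, which were not tested. No match lay in the windows of TNF, TNFSF15 or TNFSF18. Stretches of 100 bases around a match upstream of the start follow in the direction of transcription, with the match in capitals. They are chr1:7940859-7940958 for TNFRSF9 on the minus strand, chr6:31582457-31582556 for LTB on the minus strand, chr1:2556241-2556340 for TNFRSF14 on the plus strand and chr19:6670297-6670396 for TNFSF14 on the minus strand.
TNFRSF9: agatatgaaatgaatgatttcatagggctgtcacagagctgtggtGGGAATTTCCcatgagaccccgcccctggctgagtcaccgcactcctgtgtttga
LTB: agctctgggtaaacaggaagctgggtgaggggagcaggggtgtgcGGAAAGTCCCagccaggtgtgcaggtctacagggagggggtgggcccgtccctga
TNFRSF14: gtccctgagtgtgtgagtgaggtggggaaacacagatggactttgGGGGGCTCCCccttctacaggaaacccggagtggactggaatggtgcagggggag
TNFSF14: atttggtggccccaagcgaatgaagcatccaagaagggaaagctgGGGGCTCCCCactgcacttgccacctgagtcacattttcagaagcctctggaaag

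The capitals start 74 bases before the start in TNFRSF9, 86 in LTB, 85 in TNFRSF14 and 191 in TNFSF14. The sites of TNFRSF9, TNFRSF14 and TNFSF14 overlap further matches shifted by 1 base. LTB holds another match 38 bases after its start, and the match of TNFRSF25 lies 36 bases after its start. The members with a match did not share a direction. TNFRSF9 and TNFRSF14 rose, TNFRSF25 fell, LTB went from 0 counts to 34 over the siADAR1 libraries, and TNFSF14 had 11, 8 and 3 counts in control and 6, 4 and 4 in siADAR1. These matches describe letters in a window, and binding was not measured.

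The genes that act downstream of the receptors were read from the same fit, and their counts stand beside the background of 51.0% of all genes called, 26.0% as higher and 25.0% as lower. Among TRAF adaptors and inhibitor-of-apoptosis proteins, 11 genes were tested, of which 7 rose and 2 fell, and the list's median was 0.93 on the log2 scale beside 0.00469 over all genes. BIRC2, a ubiquitin ligase of the TNF receptor complex, rose by 1.04 ± 0.10, TRAF6 by 1.21 ± 0.12 and TRAF2 by 0.93 ± 0.11 on the log2 scale. TRAF1, an adaptor that is itself an NF-kB target, had the largest rise of the list at 4.52 ± 0.41 (adjusted p = 5.76e-05), and BIRC3, a ubiquitin ligase close to BIRC2, rose by 2.88 ± 0.23 (adjusted p = 3.75e-05). The 2 that fell were TRAF5 and TANK. In the NF-kB arm 15 of 25 genes rose and 1, SPATA2, fell, with a median of 0.56. NFKBIE, an inhibitor of NF-kB, rose by 2.06 ± 0.12, MAP3K14, the NF-kB-inducing kinase, by 1.54 ± 0.11 and TAB3, an adaptor of the kinase TAK1, by 1.29 ± 0.11. The members that rose included both the transcription factor subunits NFKB1, NFKB2, REL and RELB and brakes on the pathway such as TNFAIP3 and CYLD. The 9 that did not pass included RELA and another brake, the inhibitor NFKBIA, at 0.17 ± 0.31 (adjusted p = 0.677).

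Adaptors and components of the death-signalling complex showed no common direction, with 3 of 12 genes higher and 3 lower, close to the 26.0% and 25.0% over all genes. CFLAR, an inhibitor of caspase-8 activation, rose by 1.22 ± 0.15, while DAXX fell by 0.46 ± 0.10. In the JNK and p38 arm 4 of 11 rose and 2 fell, a share called near the background of 51.0%. JUN, a transcription factor of that arm, rose by 1.32 ± 0.12 and the kinase MAP2K3 by 0.72 ± 0.11, while MAPK9, the kinase JNK2, fell by 0.59 ± 0.10. Among proteases and trafficking factors that shed ligands and receptors, 3 of 11 rose and 3 fell, again near the background. The matrix protease MMP7 rose by 3.20 ± 0.32 and RHBDF1, a partner of the TNF-shedding protease ADAM17, by 0.85 ± 0.10, while the membrane protease MMP14 fell by 1.27 ± 0.15. MMP7 had 17, 8 and 9 counts in control and 151, 97 and 85 in siADAR1. Only in siADAR1 did each of its libraries reach the count minimum, so the filter favoured a rise. Of the genes whose symbol begins with TNFAIP, 2 of 5 tested rose and 1 fell. TNFAIP2 rose by 0.76 ± 0.08 and TNFAIP3, an inhibitor of NF-kB signalling, by 1.66 ± 0.31, while TNFAIP8L1 fell by 1.39 ± 0.20. Of superfamily genes that the name rule leaves out, EDAR, the ectodysplasin receptor, rose by 1.54 ± 0.46 and RELT fell by 0.80 ± 0.19. EDAR had 13, 5 and 13 counts in control and 51, 24 and 22 in siADAR1. It reached the count minimum in every library of siADAR1 but not of control, so the filter favoured a rise.

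**Figure D5:**
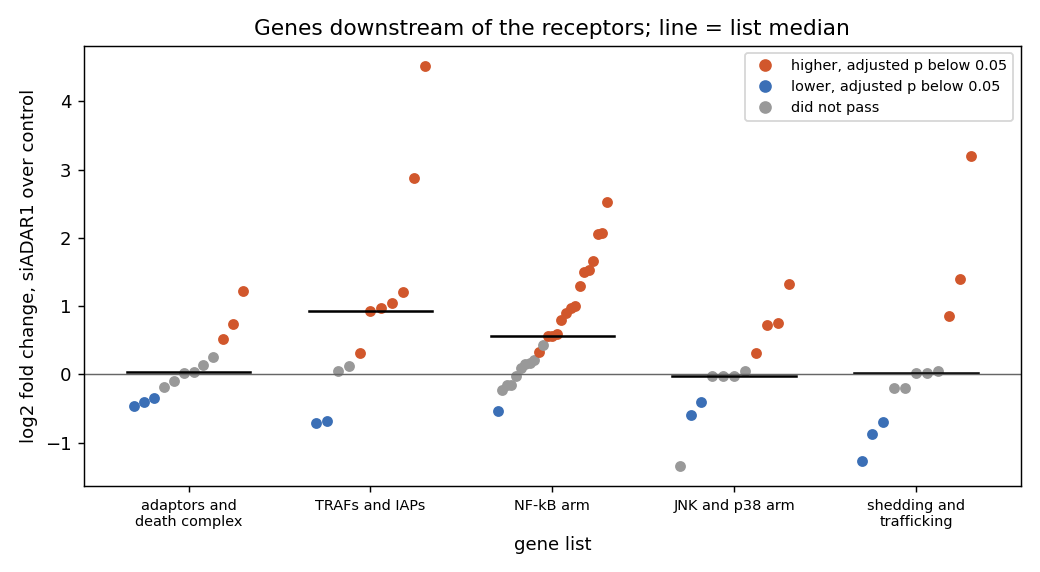
Log2 fold change of every tested gene in 5 pathway lists, 1 point per gene, coloured by call, with a bar at each list's median. The TRAF and IAP list and the NF-kB arm have medians of 0.93 and 0.56, and the other 3 lists have medians of 0.03, -0.02 and 0.02.

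Squamous epithelial markers were present, with a summed level of 1554 to 1730 CPM in control and 1581 to 1705 CPM in siADAR1. The largest parts in control were CDH1 at 574 CPM, PERP at 326, KRT17 at 292 and EPCAM at 255. Of 9 tested, 3 rose and 3 fell, beside 26.0% and 25.0% of all genes. TP63, KRT17 and DSG3 rose, and KRT5, KRT6A and CDH1 fell. KRT6A went from 26.3 to 5.60 CPM, KRT5 from 33.9 to 23.3 and DSG3 from 22.5 to 65.0. SOX2 was at 1.24 and 2.32 CPM and did not pass, and KRT14 was near 0 with at most 2 counts per library. Markers of cells that make many of these ligands and receptors elsewhere were low. T cell and NK markers summed to 1.05 to 1.34 CPM in control and 2.60 to 3.71 CPM in siADAR1, of which CD8A made most. CD8A was the 1 of 8 that was tested, and it rose by 1.49 ± 0.31 on the log2 scale (adjusted p = 0.00146). CD3E, CD3G and CD2 were at 0 in every library, and PTPRC had 1 count in control replicate 2 and 1 in siADAR1 replicate 1. Myeloid markers summed to 0.656 to 0.965 CPM in control and 1.46 to 3.32 CPM in siADAR1. Of these 8, CSF1R was tested, with 1, 3 and 2 counts in control and 12, 10 and 14 in siADAR1. It entered the test through the siADAR1 libraries alone, so its direction was set by the filter (log2 fold change 2.44 ± 0.63, adjusted p = 0.00565). ITGAM, which was not tested, had 3, 0 and 1 counts in control and 40, 9 and 4 in siADAR1. B cell markers reached at most 0.338 CPM, with none of 5 tested. Fibroblast and endothelial markers summed to 13.7 to 21.2 CPM in control and 21.7 to 26.3 CPM in siADAR1, with COL1A1, which rose by 0.44 ± 0.17 (adjusted p = 0.0410), the main part. The T cell and NK, myeloid, and fibroblast and endothelial sums were higher in siADAR1. Those rises rested mainly on CD8A, on CSF1R and ITGAM, and on COL1A1. Other markers of these lists had lower means in siADAR1, among them CD14 (0.621 to 0.364 CPM), PECAM1 (0.455 to 0.122) and PDGFRB (0.944 to 0.533), none of them tested. The B cell sums ran from 0 to 0.328 CPM in control and from 0 to 0.338 CPM in siADAR1. Squamous sums overlapped between the groups as well. What part any of these cell types had in the changes of TNF, TNFSF18 and TNFRSF9 was not tested.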

How the data were processed

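RNA was sequenced from 3 control and 3 siADAR1 samples, grouped and numbered by their titles. Per the labels' protocols, polyadenylated RNA was used and no step that marks strand is named. CASAVA, fastp and HISAT2 2.0.5 stand in the submitters' processing notes; the counting tool is not given in the sources used here. The deposited counts are whole reads per gene, not normalized, per the file headers. The FPKM values were normalized by the authors and deposited beside them. All 58735 gene coordinates in the files were those of GENCODE on GRCh38. 0 per-sample columns were left without a sample.

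Counts were fitted in R 4.3.3 with edgeR 4.0.16 (filterByExpr with a minimum count of 10, TMM, robust quasi-likelihood, group as the single term), after the procedure was tested on simulated data. The SE is the size of the log2 fold change over the square root of F. A floor of 3 counts bounds values at 0 and covers counting error only, as reads carry no molecular identifiers. Every member was named, with its CPM where tested and its counts where not, along with ADAR and the 3 genes of each pathway list with the smallest p among those that passed. A gene that this rule named is not reported here. TRAF1, BIRC3, TRAF5, TANK, SPATA2, RELA, NFKBIA, CYLD, NFKB1, NFKB2, REL and RELB, some markers and the ratios were chosen after their values were seen. The members, lists and roles were chosen with earlier results of these data known. The 17 alternatives used other scaling, DESeq2 1.42.0, limma 3.58.1, other filters, a replicate block, left-out libraries and limma on log2(FPKM + 0.1) or log2(FPKM + 1).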

Additional observations from a re-analysis of the deposited data

How the results depend on the processing

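Over 17 alternatives the number of members higher in siADAR1 ran from 6 to 9 and the number lower from 6 to 7, and no tested member that passed lost its call or turned its direction wherever it was tested. TNF was dropped by a filter of a mean of at least 1 CPM and, with TNFRSF9, by a filter of a mean of at least 0.5 FPKM. Calls gained were LTBR with library totals alone, TNFRSF13C without control replicate 2, LTB with DESeq2, without a filter on low counts, with log2(FPKM + 1) unfiltered and without control replicate 1, 2 or 3 or siADAR1 replicate 3, and TNFSF9 without siADAR1 replicate 1, without both libraries numbered 1 and on filtered FPKM with a pseudocount of 0.1 (adjusted p = 0.0348) or 1 (adjusted p = 0.0345). Leaving out each library in turn gave 8 to 9 members higher and 6 to 7 lower. Genes called over the whole table ran from 5631 to 8582. Scaling by library totals alone raised the share of calls that were higher from 50.9% to 62.9%. Leaving out both libraries numbered 1 was chosen after seeing the data.

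The replicate number as a block gave 8 members higher and 6 lower, with the same 14 genes called. Deviations of samples with the same number correlated at 0.251, 0.0844 and 0.106, so the numbers were not taken to pair the samples. Every siADAR1 sample correlated best with its own number, while control sample 2 did so with number 3, which is a hint from the data and not from the design. Low counts limit what could be tested: 16 of the 21 untested members had at least 1 count, and 12 of the 21 had no library above 3 counts.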
